A study of Mus musculus with 2 samples.

Results

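The genes described here are 10 heat shock chaperones and partner proteins of the cytosol and the mitochondria: Hspa1a, Hspa1b, Hspa8, Hsph1, Dnajb1, Bag3, Hsp90aa1, Hsp90ab1, Hspd1 and Hspe1. They were chosen by name, as members of this group, out of 31053 genes in the count tables, and each was found by its Ensembl identifier. The study took lungs of C57BL/6JRj mice, sorted cells that carried the epithelial surface protein EpCAM, and counted their transcripts one cell at a time with a droplet 3′ assay. Young mice were 3 months old and old mice 18 months old. Control mice had received saline, and treated mice lipopolysaccharide (LPS, a bacterial cell wall component used to injure the lung) at 2.5 mg/kg, 24 h before the lungs were taken. This gives 4 groups (young control, young LPS, old control, old LPS). Every lung was lavaged, digested with dispase and sorted with dead cells left out, so all groups share that handling. Cells of the 4 groups were tagged with group-specific antibodies and pooled on 1 lane, and the experiment was done on 2 lanes that the labels call independent biological replicates, which gives 8 libraries. How many animals stand behind a library is not given in the sources used here, so the p-values concern libraries, not animals. They rest on the spread between the 2 libraries of a group, shared over the groups and across genes. A small p-value therefore does not show that the 2 libraries of a group agree for that gene.

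Heat shock proteins keep other proteins folded. The HSP70 proteins bind unfolded stretches and are loaded with clients by HSP40 partners and reset by nucleotide exchange factors, while HSP90 takes over late folding of kinases, receptors and other clients, and HSP60 with its lid HSP10 folds proteins inside mitochondria. In stress, heat shock factor 1 binds pairs and triplets of short repeats in the promoters of inducible members. In ciliated airway cells, HSP70 and HSP90 help to pre-assemble the dynein arms of motile cilia in the cytoplasm. Alveolar epithelial type II (AE2) cells make and secrete surfactant.

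Cells were grouped by clustering from which the chaperone genes were left out, and classes were named by marker genes. The 2 classes compared are AE2-like cells (8508 of 11232 cells, 738 to 1367 per library) and ciliated-like cells (904 cells, 52 to 266 per library). All 10 AE2 markers were detected in the AE2-like clusters and all 10 ciliated markers in the ciliated-like clusters, so the labelled AE2 cells are present among several classes. The total depth was 85889264 UMIs (unique molecular identifiers, each standing for 1 captured transcript), 6228266 to 15435789 per library. The median AE2-like cell had 5730 to 9049 UMIs by library and the median ciliated-like cell 4864 to 6769. The filters on detected genes and mitochondrial share took out 34.7% and 24.8% of the barcodes of young control 1 and 2, and 12.1% to 21.6% in the other libraries. Different clusters hold most of a class in control and LPS lungs. Of the ciliated-like clusters, cluster 8 (439 cells) was 13.2% LPS cells and cluster 6 (465 cells) 98.9%, and the AE2-like clusters 2 to 5 were over 99% LPS cells while clusters 0 and 1 were 5.83% and 13.8%. A cluster of 340 cells with high interferon-induced genes scored as AE2 but stayed unnamed because a fibroblast marker was among its leading genes. It held 14.3% and 8.18% of the cells of young LPS 1 and 2, 0.690% and 3.03% of old LPS 1 and 2, and at most 0.131% of any control library. The doublet caller marked 13 of 11245 barcodes, which is too few to have worked, so doublets remain. No barcode was shared between libraries of 1 lane, and 2 were seen in both lanes.

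Levels are given as CPM, the UMIs of a gene scaled to a common total of UMIs of the class in each library. The order over the cell classes differed by member. Hsph1, the HSP110 nucleotide exchange factor of HSP70, ranged from 85.2 to 561 CPM over the 8 ciliated-like libraries and from 1.94 to 6.78 CPM in AE2-like cells. In the 5 libraries with at least 20 alveolar macrophage-like cells it lay between 21.7 and 51.4 CPM. Hsp90aa1, the stress-inducible cytosolic HSP90, reached 1690 to 8095 CPM in ciliated-like cells, 203 to 293 CPM in AE2-like cells and at most 658 CPM in a library of any other class. For these genes the ciliated-like libraries did not overlap with those of any other class. Hspa8, the constitutive HSP70, showed no such separation, with 1114 to 2272 CPM in ciliated-like libraries and 1172 to 2038 CPM in dendritic-like ones. A class is a cluster, so these differences between classes are descriptions and were not tested.

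**Figure D1:**
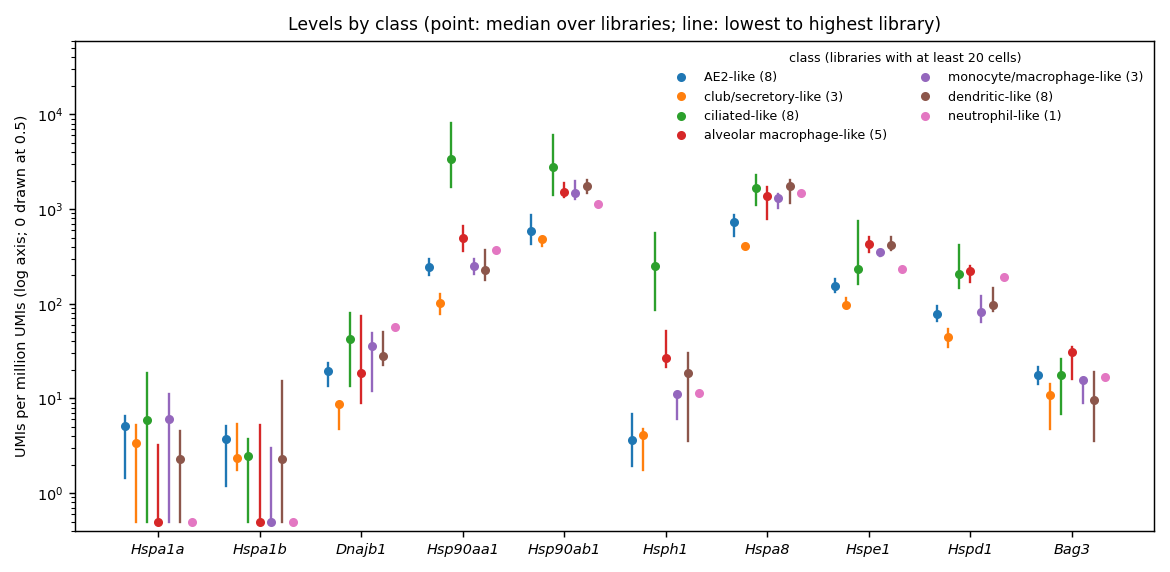
Level of the 10 chaperone genes in each cell class, in CPM on a log axis, with the median over libraries as a point and the lowest to highest library as a line. Hsph1 (median 249 CPM) and Hsp90aa1 (median 3389 CPM) lie highest in ciliated-like cells, while Hspa1a and Hspa1b stay under 20 CPM in every library of every class.

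In AE2-like cells of young mice, LPS raised the inducible HSP70 genes from a very low level and lowered the constitutive HSP90 gene Hsp90ab1. In old AE2-like cells neither change was called. Old control cells held more Hspa1a and less Hsp90ab1 than young control cells. Both of these control differences were called in the main fit, but not by DESeq2 or when any control library was left out. The comparisons used UMIs summed per library, with edgeR's quasi-likelihood test over 11315 genes and Benjamini-Hochberg adjustment at 0.05. After LPS in young mice 4 of the 10 members were higher and 2 lower, where 20% of all genes tested were called higher and 16.4% lower. In old mice 2 were higher and 1 lower, against 24.7% and 22.8% of all genes. The members' median log2 fold change was -0.05 in young and 0.12 in old mice, beside -0.02 and -0.01 over all genes tested. With so many genes of these cells called, the counts say little about the group, and the members are described one by one. Other lists moved with the same contrasts. The 10 AE2 markers summed to 336200 to 348000 CPM in young control, 144900 to 153100 in young LPS, 308000 to 322900 in old control and 113000 to 158600 in old LPS. The 8 club cell markers summed to 3140 to 3172 CPM in young control, 12440 to 12780 in young LPS, 5291 to 6132 in old control and 15130 to 15630 in old LPS, so they were higher after LPS and also higher in old than in young control. None of these markers was at 0. Immediate-early genes, which like heat shock genes are known to react to tissue handling, summed to 1187 and 1188 CPM in young control 1 and 2, 1645 and 1359 in young LPS, 1328 and 1078 in old control, and 1626 and 1428 in old LPS. Of 17 tested, 6 were higher and none lower after LPS in young mice, 5 were higher and 3 lower in old mice, and none was called between the controls. The part of these lists in the chaperone results was not tested.

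Hspa1a and Hspa1b encode nearly identical inducible HSP70 proteins from neighbouring genes on chromosome 17, at chr17:34969190-34972156 and chr17:34956436-34959238 of GRCm38, both on the minus strand and with 9951 bases between them. Hspa1a was counted at 1.46 and 1.74 CPM in young control 1 and 2, 4.30 and 5.13 in young LPS, 4.86 and 5.81 in old control, and 6.72 and 6.34 in old LPS. The young controls were the lowest of all 8 libraries and did not overlap with any other group. These levels rest on 6 and 13 UMIs in the young controls and on 27 to 77 UMIs in each of the others. The log2 fold change after LPS in young mice was 1.53 ± 0.33 (SE, adjusted p = 0.00151), and it was called under every alternative tried. In old mice the log2 fold change was 0.28 ± 0.22 (adjusted p = 0.308), and the difference between the ages in that response was -1.25 ± 0.40 (adjusted p = 0.224), so a difference in response between the ages was not shown. Without LPS, old AE2-like cells held more Hspa1a than young ones, by a log2 fold change of 1.71 ± 0.32 (adjusted p = 0.0218). Hspa1a was 1 of 2 members called between old and young controls, where 0.247% of all genes were called higher and 0.371% lower. The size of that age difference lay between 1.55 and 1.87 when any of the 4 control libraries was left out, but none of those fits called it (adjusted p = 0.153 without young control 1, 0.363 without young control 2, 0.138 without old control 1 and 0.242 without old control 2), and neither DESeq2 (adjusted p = 0.148) nor the fit on cells with at least 1000 genes (0.0503) called it. Within cluster 0, Hspa1a stood at 1.27 and 1.00 CPM in young control 1 and 2 and at 4.83 and 3.50 in old control 1 and 2. Cluster 1 held 2.26 and 2.70 CPM in young controls and 7.37 and 9.49 in old controls, so the old libraries were higher in both main control clusters.

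Hspa1b followed at similar levels, with 1.21 and 2.14 CPM in young control, 3.82 and 4.28 in young LPS, 3.45 and 4.80 in old control, and 3.50 and 5.10 in old LPS. Again the young controls were the lowest libraries, while the other 3 groups overlapped. The rise after LPS in young mice was called (log2 fold change 1.17 ± 0.38, adjusted p = 0.0227), but not when any of the 4 young libraries was left out (adjusted p = 0.135 and 0.0504 without young control 1 and 2, 0.0527 and 0.11 without young LPS 1 and 2), nor with DESeq2 (0.109) or a mitochondrial share of at most 10% (0.108). The old response was 0.05 ± 0.28 (adjusted p = 0.897) and the age difference in controls 1.21 ± 0.38 (adjusted p = 0.208). Few cells carried these transcripts. With each cell thinned to 2000 UMIs, a UMI of either gene was found in 0.276% and 0.443% of AE2-like cells of young control 1 and 2 (2 of 725 and 5 of 1130 cells), and in 1.53% to 2.40% of cells in the other 6 libraries. Without thinning these shares were 1.49% and 2.54% in young controls and 4.62% to 9.07% in the others. Thinning left out 2 to 31 AE2-like cells per library that were shallower. Across single cells the summed count of Hspa1a and Hspa1b ran with no other gene to a degree that counts as a finding, since the highest mean correlation over the 8 libraries (Clic5, 0.05) ranged from -0.04 to 0.15 in 8409 cells.

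Counts of Hspa1a and Hspa1b could be kept apart, as none of the 511 stretches of 90 bases in the last 600 bases of either transcript was shared with another gene. A gene model on the opposite strand, Gm20481, overlaps Hspa1a, and whether the counting used strand is not given in the sources used here. The promoters of both genes are shown because the genes move together and because 296 of 300 bases of their promoter windows are identical. Motifs were sought as 2 inverted repeat units facing each other, GAANNTTC or TTCNNGAA, which both read the same on either strand. Windows run from 250 bases before to 50 bases after an annotated start and come from RefSeq on GRCm38.p6. One or both motifs occur in 15.1% of 32851 such windows. The stretch of 128 bases from position -164 to -37, which lies in no annotated exon, is the same letter for letter at chr17:34972193-34972320 (Hspa1a) and chr17:34959275-34959402 (Hspa1b), read on the minus strand. Capitals mark the motif, at positions -104 to -97 from the start:
Hspa1a and Hspa1b: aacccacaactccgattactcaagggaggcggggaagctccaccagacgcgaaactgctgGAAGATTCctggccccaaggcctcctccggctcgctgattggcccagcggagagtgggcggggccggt

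Hspa8, the abundant HSP70 of unstressed cells, stood at 609 and 511 CPM in young control, 722 and 750 in young LPS, 725 and 694 in old control, and 892 and 867 in old LPS. LPS libraries were above the controls of their own age in each case, and the young LPS libraries overlapped with the old controls. The rises were called in young (log2 fold change 0.40 ± 0.10, adjusted p = 0.00431) and in old mice (0.31 ± 0.10, adjusted p = 0.0145). The young call was lost without young control 2 (adjusted p = 0.112) and the old one without old control 1 (adjusted p = 0.0539) or old control 2 (adjusted p = 0.109). Within the last 600 bases of the Hspa8 transcript, 21.1% of the stretches of 90 bases also occur in other genes, among them Gm15459, Gm6210 and Gm8355, so its counts are uncertain to that extent. Hsph1 was at 4.13 and 3.74 CPM in young control, 2.55 and 1.96 in young LPS, 6.59 and 3.41 in old control, and 3.69 and 3.95 in old LPS, with no call in any comparison (LPS in young mice: log2 fold change -0.81 ± 0.38, adjusted p = 0.104). In young control 1 and 2 the AE2-like level of Hsph1 was 0.724% and 0.871% of the ciliated-like level. The same ratio for the summed ciliated markers was 0.655% and 0.727%. In old control 1 and 2 the ratio was 2.32% and 1.06% for Hsph1, and 0.695% and 0.682% for the markers. In the 4 LPS libraries the ratio for Hsph1 was 1.81% to 2.99% and for the markers 0.202% to 0.305%. The part of ciliated RNA in the AE2-like counts of Hsph1 was not tested.

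Dnajb1, the HSP40 partner that delivers clients to inducible HSP70, lay at 18.0 and 13.5 CPM in young control, 23.7 and 19.9 in young LPS, 21.5 and 19.4 in old control, and 16.4 and 19.8 in old LPS. The young LPS libraries were both above the young controls. That rise passed the test (log2 fold change 0.50 ± 0.17, adjusted p = 0.0319), but not without young LPS 1 (adjusted p = 0.204), young control 2 (0.395) or old control 2 (0.0532), nor with DESeq2 (0.161) or the chaperone lists kept for clustering (0.235). In old mice the log2 fold change was -0.17 ± 0.16 (adjusted p = 0.39). Bag3, a co-chaperone that links HSP70 to autophagy, stayed between 14.4 and 20.9 CPM in all 8 libraries and was not called in any comparison.

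Hsp90ab1, the constitutive cytosolic HSP90, was the member whose response to LPS differed between the ages in AE2-like cells. Its level was 877 and 749 CPM in young control 1 and 2, 449 and 426 in young LPS, 568 and 579 in old control, and 751 and 600 in old LPS. The young LPS libraries were the lowest and did not overlap with any other group, and the old LPS libraries were both above the old controls. In young mice Hsp90ab1 fell by 0.89 ± 0.11 on the log2 scale (adjusted p = 9.23e-06), and in old mice the log2 fold change was 0.24 ± 0.11 (adjusted p = 0.0852). The difference between these responses was 1.13 ± 0.16 (adjusted p = 0.002), where 0.389% of all genes had a positive and 0.265% a negative difference called. It lay between 0.96 and 1.28 and was called under all alternatives. After LPS, old cells held more Hsp90ab1 than young ones (log2 fold change 0.63 ± 0.11, adjusted p = 0.003), the only member called there, against 2.10% of genes called higher and 2.02% lower. That call was lost without young LPS 2 (adjusted p = 0.0944). Between controls the order was the other way, with old cells lower by a log2 fold change of -0.50 ± 0.11 (adjusted p = 0.0462). The control difference was the least firm of these results, since 12 of 19 alternatives did not call it, among them leaving out young control 1 (adjusted p = 0.447), young control 2 (0.3), old control 1 (0.535), old control 2 (0.316), young LPS 1 (0.0992) or young LPS 2 (0.101), and DESeq2 (0.0639).

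Of the 5 AE2-like clusters with at least 20 cells in every LPS library, the old libraries were above the young ones in Hsp90ab1 in 3, and the ages overlapped in the other two. In cluster 2, young LPS 1 and 2 held 425 and 398 CPM and old LPS 1 and 2 held 631 and 455. In cluster 3, led by interferon-induced genes such as Iigp1 and Igtp, the values were 449 and 444 against 735 and 605. In cluster 4, led by Saa3 and Cxcl1, they were 507 and 522 against 638 and 578. In cluster 1, which holds mostly control cells, young LPS 1 and 2 held 573 and 466 CPM (22 and 55 cells) and old LPS 1 and 2 held 481 and 585 (24 and 115 cells). In cluster 10 they held 449 and 294 CPM (41 and 72 cells) against 360 and 467 (20 and 75 cells), so the old library was lower in lane 1 and higher in lane 2 in both of these clusters. With all libraries pooled, cluster 5 had the highest Hsp90ab1 of the AE2-like clusters (939 CPM). It was led by neutrophil-attracting and colony-stimulating factor genes (Csf3, Cxcl2), and 490 of its 508 cells were from old mice. Old LPS 1 and 2 held 1019 and 861 CPM there. Young control 1 held 905 CPM in cluster 1 and 910 CPM in cluster 9, above that old LPS 2 value. The unnamed cluster that scored as AE2 was left out of the AE2-like levels. It held 699 CPM with all libraries pooled, and 172 and 102 of its 340 cells were from young LPS 1 and 2. Counting it as AE2-like was among the alternatives. Among control cells, cluster 0 held 834 and 709 CPM in young control against 555 and 558 in old control. With each cell thinned to 2000 UMIs, 80.1% and 76.9% of young control cells carried a Hsp90ab1 UMI, 56.9% and 57.0% of young LPS cells, 66.7% and 68.5% of old control cells, and 70.2% and 66.2% of old LPS cells.

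Hsp90aa1 moved less in AE2-like cells, at 258 and 241 CPM in young control, 213 and 205 in young LPS, 285 and 286 in old control, and 252 and 226 in old LPS. LPS libraries were below the controls of their own age in each case. The falls passed the test in young (log2 fold change -0.26 ± 0.09, adjusted p = 0.0427) and old mice (-0.25 ± 0.09, adjusted p = 0.0325), but the young one in only 9 and the old one in only 7 of 19 alternatives. For the young mice, leaving out any library but those of the old LPS group ended the call (adjusted p = 0.222, 0.0984, 0.13, 0.228, 0.074 and 0.0644 without young control 1 and 2, young LPS 1 and 2 and old control 1 and 2). For the old mice, leaving out any library but old LPS 1 did (adjusted p = 0.126, 0.125, 0.093, 0.0501, 0.0548, 0.0603 and 0.0585 without old control 1 and 2, old LPS 2, young control 1 and 2 and young LPS 1 and 2). Ciliated RNA among the AE2-like counts moved with this result. The summed ciliated markers stood at 0.655% to 0.727% of their ciliated-like level in the control libraries and at 0.202% to 0.305% in the LPS libraries. At that ratio, ciliated RNA alone would give 53.0 and 37.1 CPM of Hsp90aa1 in young control, 5.16 and 5.05 in young LPS, 28.6 and 29.3 in old control, and 4.01 and 7.49 in old LPS. The unscaled AE2-like level of Hsp90aa1 was 254 and 242 CPM in young control, 213 and 203 in young LPS, 294 and 290 in old control, and 247 and 224 in old LPS. In the young mice the fall was thus close in size to the fall in the level given by the marker ratio, and in the old mice it was larger. The part of this RNA in the result was not tested. For Hsp90ab1 the same ratio gives 39.7 and 34.9 CPM in young control and 4.25 and 4.45 in young LPS. Its unscaled AE2-like level was 862 and 752 CPM in young control and 448 and 424 in young LPS. The part of ciliated RNA in the Hsp90ab1 result was not tested either.

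The mitochondrial pair changed little in AE2-like cells. Hspe1, which encodes the HSP10 lid, stood at 157 and 150 CPM in young control, 134 and 156 in young LPS, 149 and 138 in old control, and 183 and 183 in old LPS. Old LPS was above all other libraries, and its rise over old control was called (log2 fold change 0.35 ± 0.10, adjusted p = 0.00775), except without old control 2 (adjusted p = 0.0959). The young log2 fold change was -0.07 ± 0.10 (adjusted p = 0.605), and the difference between the ages, 0.42 ± 0.14, was not called (adjusted p = 0.251). Hspd1, the HSP60 barrel, ranged from 66.1 to 97.6 CPM and was not called in any comparison.

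**Figure D2:**
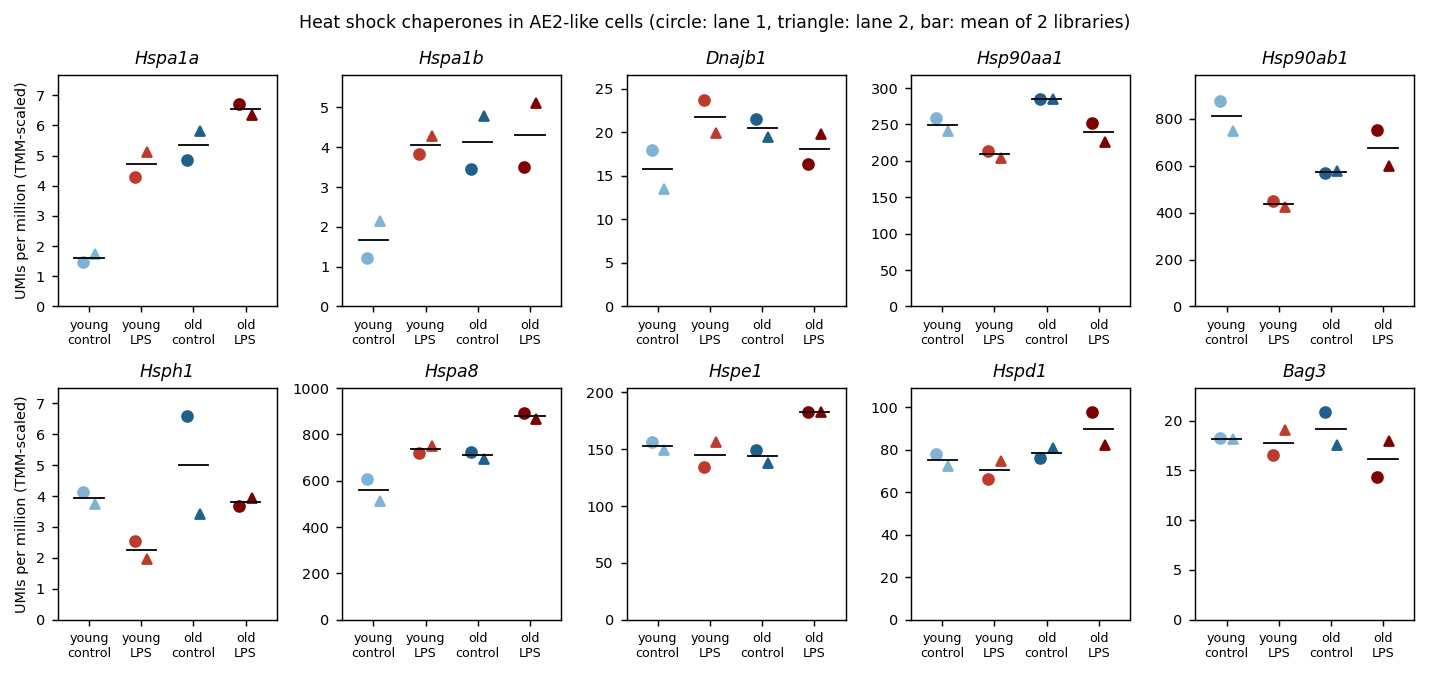
Level of each chaperone gene in AE2-like cells, in TMM-scaled CPM, with 1 point per library (circle lane 1, triangle lane 2) and a bar for the mean of 2 libraries. The young controls lie lowest for Hspa1a and Hspa1b. For Hsp90ab1 the mean of the young controls is highest, with old LPS 1 just above young control 2. The young LPS libraries lie lowest for Hsp90ab1 at 449 and 426 CPM.

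In ciliated-like cells of young mice LPS lowered 5 of the 8 members that could be tested (Hsp90aa1, Hsp90ab1, Hsph1, Hspe1 and Hspd1) and raised none, where 5.29% of 7907 genes were called higher and 3.28% lower. In old mice 3 of 8 fell (Hsp90ab1, Hsph1 and Hspd1) and none rose, against 5.70% of genes called higher and 3.53% lower. The median log2 fold change of the tested members was -1.52 in young and -0.60 in old mice, beside 0.00 and -0.01 over all genes tested. The 5 calls in young mice held under all 19 alternatives. Among these, counting the unnamed cluster as AE2-like leaves the ciliated-like cells as they were, so it could not change a call here. Hspa1a and Hspa1b were below the filter on low counts here and were not tested.

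Hsp90aa1 was counted at 8220 and 5192 CPM in young control 1 and 2, 1811 and 1901 in young LPS, 3998 and 4243 in old control, and 2097 and 2824 in old LPS. The groups did not overlap, with young control highest, then old control, old LPS and young LPS. In young mice it fell by 1.86 ± 0.22 on the log2 scale (adjusted p = 0.000812). The old log2 fold change, -0.75 ± 0.21, missed the threshold (adjusted p = 0.0706). Hsp90ab1 behaved alike, with 6161 and 4886 CPM in young control, 1492 and 1676 in young LPS, 3175 and 3491 in old control, and 1584 and 2466 in old LPS. Old LPS and young LPS overlapped for this gene, and both lay below the old controls. The falls were 1.81 ± 0.19 in young (adjusted p = 4.46e-05) and 0.72 ± 0.18 in old mice (adjusted p = 0.028). The old call was lost without old control 1 (adjusted p = 0.0924), old control 2 (0.148) or old LPS 1 (0.056), and without the 3% of cells with the highest doublet scores (0.0818). For neither HSP90 gene was the difference between the ages in response called (Hsp90aa1 1.11 ± 0.30, adjusted p = 0.451, and Hsp90ab1 1.08 ± 0.26, adjusted p = 0.244).

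Hsph1 fell most, from 570 and 439 CPM in young control to 91.3 and 112 in young LPS, with 284 and 323 in old control and 169 and 218 in old LPS. As for Hsp90aa1, the 4 groups did not overlap. The log2 fold change after LPS was -2.35 ± 0.19 in young (adjusted p = 9.84e-11) and -0.65 ± 0.16 in old mice (adjusted p = 0.00741), and the old one was not called without old control 2 (adjusted p = 0.0734) or old LPS 1 (0.21), nor by DESeq2 (0.217). The difference between the ages in response was 1.69 ± 0.25 (adjusted p = 0.000751). That difference was called for 2 of 8 members, Hsph1 and Hspe1, both positive, where 0.0885% of all genes had a positive and 0.152% a negative difference called. Without LPS, old cells held less Hsph1 than young cells (log2 fold change -0.77 ± 0.16, adjusted p = 0.0199, not called without young control 1, adjusted p = 0.417, or old control 1, 0.485, nor by DESeq2, 0.329). After LPS they held more (0.92 ± 0.19, adjusted p = 0.00758, not called without young LPS 1, adjusted p = 0.315, nor by DESeq2, 0.154). Hsph1 was the only member called after LPS between the ages, where 0.278% of genes were higher and 0.847% lower. Thinned to 2000 UMIs, 67.3% and 64.2% of young control cells carried a Hsph1 UMI, 18.9% and 16.4% of young LPS cells, 39.9% and 43.8% of old control cells, and 29.3% and 34.0% of old LPS cells. Without thinning the shares were 87.0% and 80.4%, 42.4% and 44.1%, 68.7% and 76.9%, and 61.3% and 72.3%. In AE2-like cells, thinned alike, 0.398% to 1.34% carried one, so the ciliated-like shares were far above these in every library.

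The promoter windows of Hsph1 (chr5:149614287-149636376, minus strand) hold the motifs as a triplet, in which GAANNTTC and TTCNNGAA overlap by 1 shared unit. A triplet occurs in 0.603% of the 32851 windows. The triplet of Hsph1 and a second, separate pair lie in the gene's own annotated exon, with capitals for the motifs, read on the minus strand at chr5:149636283-149636305 and chr5:149636357-149636374. The same is shown for Hspe1, where 3 overlapping motifs lie at positions -89 to -72 before its start, at chr1:55088054-55088081 on the plus strand. That site falls in an exon of Hspd1 on the other strand, since the Hspd1 and Hspe1 gene models face away from each other and overlap by 112 bases:
Hsph1 triplet: gcagaTTCTGGAAAGTTCtcctc
Hsph1 pair: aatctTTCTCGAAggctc
Hspe1 and Hspd1: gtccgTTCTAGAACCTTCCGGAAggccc
A single motif was found for Bag3 after its start (position 42 to 49) and none for Dnajb1 in 2 windows. Hsp90aa1, Hsp90ab1 and Hspa8 have no entry. A match describes letters, not binding.

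The mitochondrial pair, which shares this start region, fell together in ciliated-like cells of young mice. Hspe1 went from 766 and 535 CPM in young control to 175 and 171 in young LPS, and stood at 239 and 286 in old control and 198 and 227 in old LPS. Young controls were far above all other libraries, and old LPS was below old control. Its log2 fold change was -1.93 ± 0.17 in young (adjusted p = 6.51e-10) and -0.29 ± 0.16 in old mice (adjusted p = 0.329), and the difference between the ages 1.64 ± 0.24 (adjusted p = 0.000751). Old control cells held less Hspe1 than young control cells by a log2 fold change of -1.36 ± 0.16 (adjusted p = 1.52e-05), which all alternatives called. In that comparison 2 of 8 members (Hsph1 and Hspe1) were lower and none higher, where 0.253% of all genes were called higher and 0.114% lower. Hspd1 lay at 426 and 313 CPM in young control, 165 and 154 in young LPS, 250 and 246 in old control, and 174 and 166 in old LPS. It fell by 1.23 ± 0.17 in young (adjusted p = 4.43e-06) and by 0.54 ± 0.16 in old mice (adjusted p = 0.0267), the latter not called without old control 1 (adjusted p = 0.27), old control 2 (0.087), old LPS 1 (0.0845) or old LPS 2 (0.0572), nor with DESeq2 (0.511) or no filter on low counts (0.0547). For Hspd1, 9.0% of the stretches of 90 bases in the last 600 bases are shared with Gm47750 and the pseudogene Hspd1-ps3.

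Hspa8, Dnajb1 and Bag3 were not called in either LPS contrast of ciliated-like cells, and the inducible HSP70 genes held too few UMIs there to be tested. Hspa8 was at 1668 and 1134 CPM in young control, 1278 and 1864 in young LPS, 1624 and 1573 in old control, and 2402 and 2224 in old LPS. The young groups overlapped, and old LPS lay above all other libraries without a call (log2 fold change 0.53 ± 0.18, adjusted p = 0.0983). Dnajb1 held 31.3 and 13.6 CPM in young control, 33.7 and 47.7 in young LPS, 77.0 and 51.3 in old control, and 42.1 and 60.3 in old LPS, and its highest contrast, old against young control, was not called (log2 fold change 1.46 ± 0.36, adjusted p = 0.08). Bag3 ranged from 6.95 to 25.7 CPM on 4 to 20 UMIs per library, with no call. Hspa1a was counted with 0 and 1 UMI in young control 1 and 2, 2 and 3 in young LPS, 9 and 3 in old control, and 31 and 1 in old LPS. With so few UMIs, and with old LPS 1 and 2 that far apart, no order of the groups can be read. Hspa1b had 0 to 6 UMIs per library.

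**Figure D3:**
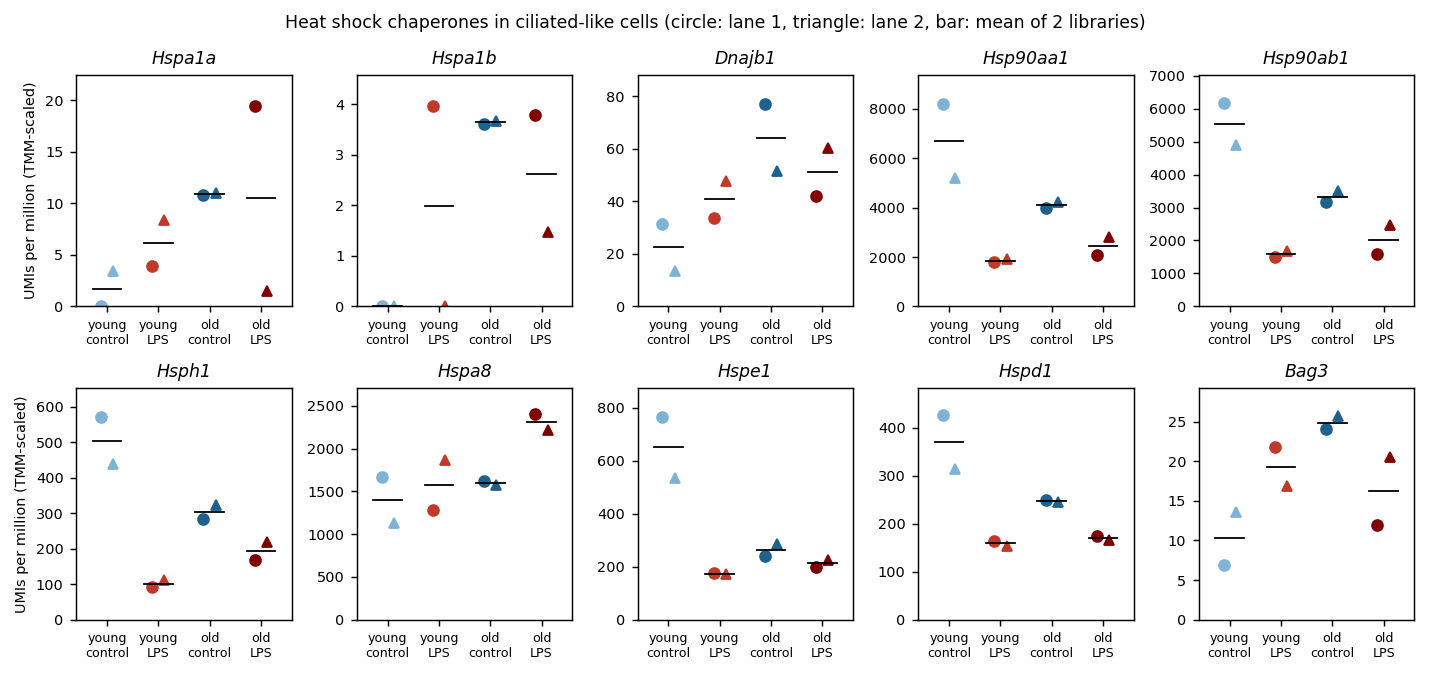
Level of each chaperone gene in ciliated-like cells, in TMM-scaled CPM, with 1 point per library (circle lane 1, triangle lane 2) and a bar for the mean of 2 libraries. Young control lies highest and young LPS lowest for Hsp90aa1 and Hsph1, with old control and old LPS in between.

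The fall was spread over the cells. With each ciliated-like cell thinned to 2000 UMIs, the median cell held 16 and 9 Hsp90aa1 UMIs in young control 1 and 2, 3 and 4 in young LPS, 8 and 8 in old control, and 3 and 5 in old LPS. In young control 1 the 10th percentile was 10 UMIs and in young LPS 1 the 90th percentile was 6, so the bulk of these 2 distributions did not overlap. In lane 2 the 10th percentile of young control was 5 and the 90th percentile of young LPS 7, so these did overlap. Hspa8 medians, by contrast, were 2 to 4 UMIs in all libraries. Across single cells the HSP90 genes and Hspa8 ran together weakly, with a mean correlation over the 8 libraries of 0.24 for Hsp90aa1 with Hsp90ab1 (-0.09 to 0.45), 0.21 for Hsp90aa1 with Hspa8 (0.08 to 0.37) and 0.16 for Hsp90ab1 with Hspa8 (0.04 to 0.30). These correlations are descriptions over 873 cells that share library and depth. In AE2-like cells no pair exceeded 0.08.

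**Figure D4:**
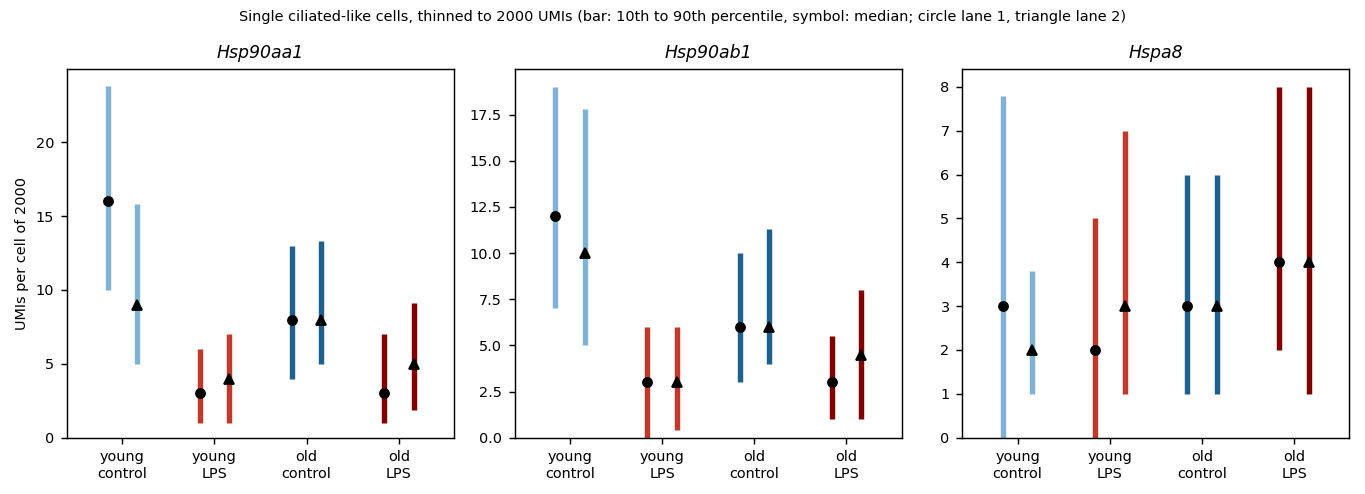
UMIs of Hsp90aa1, Hsp90ab1 and Hspa8 per ciliated-like cell thinned to 2000 UMIs, with the 10th to 90th percentile as a bar and the median as a symbol for each library. The Hsp90aa1 median drops from 16 and 9 in young control to 3 and 4 in young LPS, while the Hspa8 median stays at 2 to 4 UMIs.

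Control and LPS cells of this class lie in different clusters, so the LPS contrast sets cluster 6 against cluster 8. In cluster 8 Hsp90aa1 was at 8082 and 5102 CPM in young control 1 and 2 and at 4114 and 4176 in old control 1 and 2, and the 28 cells of old LPS 2 in that cluster held 2923 CPM, below every control library there. The other LPS libraries had 5 to 17 cells each in cluster 8, too few to give a level. In cluster 6 young LPS held 1672 and 1785 CPM and old LPS 1970 and 2600. The ciliated markers moved less than Hsp90aa1, Hsp90ab1, Hsph1, Hspe1 and Hspd1 did in young mice. Both clusters were named by these markers, so the marker level says little about the make-up of the class. The 10 markers summed to 19420 to 20790 CPM in the control libraries and 16740 to 17500 CPM in the LPS libraries, with none at 0. AE2 markers summed to 7496 to 22500 CPM in young control, 9281 to 9777 in young LPS, 6472 to 11180 in old control and 5100 to 11200 in old LPS, and the 8 club cell markers to 5547 to 12180 CPM in young control, 6618 to 15180 in young LPS, 7068 to 8215 in old control and 17770 to 21320 in old LPS. Club cell markers were thus higher in both old LPS libraries than in any other, while the young groups overlapped. Summed over the 10 members, the chaperones held 6702 and 8207 CPM in old LPS 1 and 2. These sums lay below old control 1 and 2 (9686 and 10253 CPM). They lay above young LPS 1 and 2 (5075 and 5952 CPM). The part of the club cell markers in the chaperone differences was not tested. Immediate-early genes summed to 1515 and 1791 CPM in young control, 2982 and 2406 in young LPS, 2678 and 2802 in old control, and 2948 and 2332 in old LPS. Of 13 tested, 4 were higher and none lower after LPS in young mice, against 5.29% and 3.28% of all genes. In old mice 2 were higher and 1 lower, against 5.70% and 3.53%. Between the controls 3 were higher in old than in young (Fosb, Jun and Klf6, log2 fold change 0.86 to 3.14), against 0.253% of all genes. They stood beside the lower Hspe1 and Hsph1. The part of handling was not tested.

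The response to LPS was compared between the classes directly, in a fit with library as a term over 12230 genes. The spread was shared across genes here too, so the smallest p-values do not measure how well the 2 libraries of a group agree. In young mice the fall was larger in ciliated-like than in AE2-like cells for 5 members, where 3.18% of all genes had a positive and 2.17% a negative difference called. The difference in log2 fold change (ciliated-like minus AE2-like) was -1.46 ± 0.20 for Hsp90aa1 (adjusted p = 4.77e-11) and -1.72 ± 0.20 for Hspe1 (adjusted p = 3.16e-15), and both held under all 18 alternatives. It was -1.01 ± 0.21 for Hspd1 (adjusted p = 0.000134, not called without young control 1, adjusted p = 0.0981), -0.80 ± 0.20 for Hsp90ab1 (adjusted p = 0.00202, not called by DESeq2, adjusted p = 0.16) and -1.37 ± 0.41 for Hsph1 (adjusted p = 0.0243). The Hsph1 difference was lost without young control 1, young control 2, young LPS 1 or young LPS 2. It was also lost with at least 1000 genes per cell (adjusted p = 0.0613) and with DESeq2 (0.164). The unscaled AE2-like level of Hsph1 was only 4.06 and 3.76 CPM in young control and 2.54 and 1.94 in young LPS. At the ratio of the ciliated markers, ciliated RNA alone would give 3.67 and 3.14 CPM in young control and 0.260 and 0.298 in young LPS. The part of this RNA in the difference was not tested. In old mice 2 members differed, against 5.60% of genes with a positive and 3.89% with a negative difference. They were Hsp90ab1 (-0.86 ± 0.19, adjusted p = 0.000309), whose log2 fold changes in the fits of each class were 0.24 in AE2-like and -0.72 in ciliated-like cells, and Hspd1 (-0.64 ± 0.19, adjusted p = 0.0125). Hsp90ab1 was not called without old LPS 1 (-0.38, adjusted p = 0.231), nor Hspd1 without old control 1 (adjusted p = 0.356) or old LPS 1 (0.189), and DESeq2 called neither (adjusted p = 0.0847 for Hsp90ab1 and 0.157 for Hspd1). For Hspa8 no difference was called (-0.14 ± 0.19, adjusted p = 0.835, in young, and 0.34 ± 0.19, adjusted p = 0.308, in old mice).

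**Figure D5:**
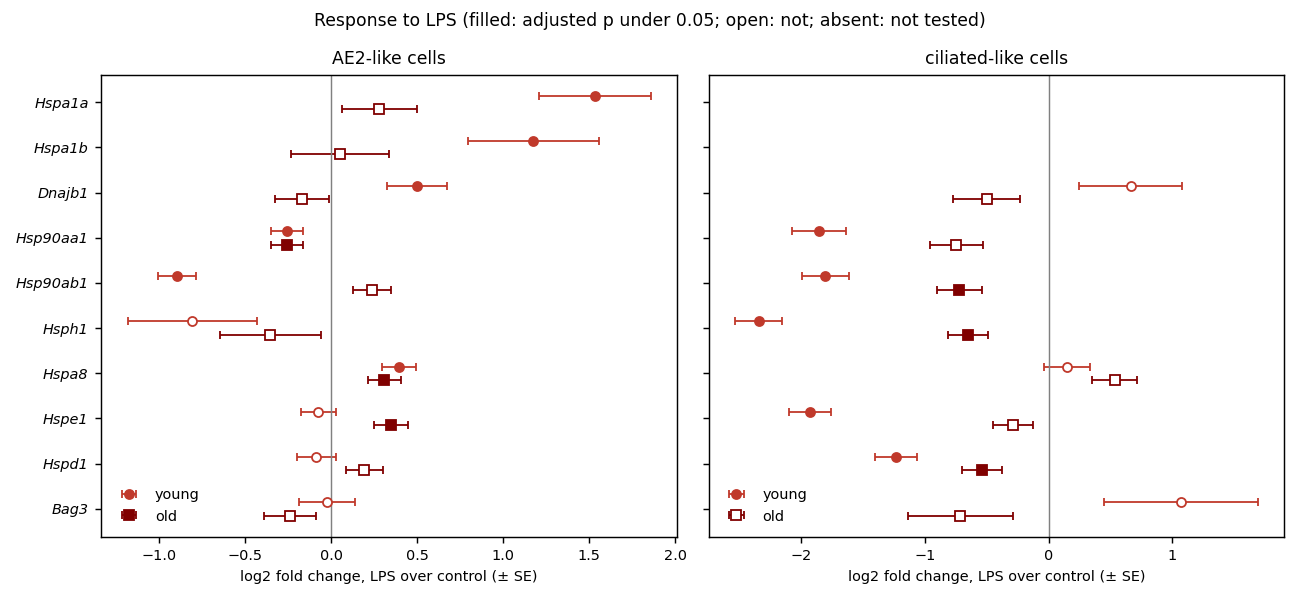
Log2 fold change of LPS over control with its SE for each chaperone gene, in young (circle) and old mice (square), filled where the adjusted p is under 0.05. In young ciliated-like cells 5 members lie between -1.23 and -2.35, while in AE2-like cells the values span -0.89 for Hsp90ab1 to 1.53 for Hspa1a.

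The partners of these chaperones were followed in lists of the wider folding system. After LPS in young ciliated-like cells, 5.29% of 7907 genes were called higher and 3.28% lower. There 3 of 11 HSP90 co-chaperones were lower and none higher. They were Ahsa2 (log2 fold change -3.75 ± 0.52, adjusted p = 4.42e-06), Fkbp4 (-1.19 ± 0.16, adjusted p = 3.34e-06) and Stip1, which bridges HSP70 and HSP90 (-0.79 ± 0.19, adjusted p = 0.00483). The response of Stip1 differed between the ages (1.20 ± 0.25, adjusted p = 0.0292), in the same direction as Hsph1 and Hspe1. Of 15 other HSP70 system genes, 2 were lower, Hspa4l, a relative of Hsph1 (-1.06 ± 0.14, adjusted p = 2.96e-06), and St13 (-1.08 ± 0.19, adjusted p = 0.000116), and 1 was higher, Bag1 (0.67 ± 0.13, adjusted p = 0.000805). Of 13 HSP40 genes Dnaja4 (-0.92 ± 0.18, adjusted p = 0.000607) and Dnajb2 (-0.78 ± 0.18, adjusted p = 0.00325) were lower and none was higher. The list medians were -0.42 for HSP90 co-chaperones, -0.25 for the HSP70 system and -0.04 for HSP40 genes, beside 0.00 over all genes tested. In old ciliated-like cells Fkbp4 (-0.64 ± 0.15, adjusted p = 0.00433), Dnaja4 (-0.64 ± 0.16, adjusted p = 0.00759) and Dnajb2 (-0.58 ± 0.16, adjusted p = 0.0153) were lower as well, and of these lists Dnajc3 (0.56 ± 0.14, adjusted p = 0.00754), Dnajc7 (0.73 ± 0.19, adjusted p = 0.0135) and Bag1 (0.44 ± 0.13, adjusted p = 0.0257) were higher. The old counts were thus 2 higher and 2 lower of 13 HSP40 genes, 1 higher and 1 lower (Hspa12a, -1.76, adjusted p = 0.0461) of 15 HSP70 system genes and 1 lower of 11 HSP90 co-chaperones. Over all genes tested, 5.70% were called higher and 3.53% lower in old mice, so single calls in lists this short say little. Chaperones of the endoplasmic reticulum went the other way in old mice, with 10 of 13 higher after LPS and none lower, where 5.70% of all genes were called higher, Sdf2l1 by 1.68 ± 0.20 (adjusted p = 4.24e-07). In young mice none of the 13 was higher and 1, Hsp90b1, was lower (-0.51 ± 0.13, adjusted p = 0.00645). The response differed between the ages for Sdf2l1 (1.59 ± 0.30, adjusted p = 0.0133) and Hsp90b1 (0.93 ± 0.18, adjusted p = 0.0133).

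In AE2-like cells the endoplasmic reticulum list rose at both ages (medians 0.73 in young and 1.14 in old mice). In young mice 9 of 13 were higher and 1, Serpinh1, lower (-0.57 ± 0.13, adjusted p = 0.0032). In old mice 10 were higher and none lower. Over all genes tested, 20% were called higher and 16.4% lower in young, and 24.7% and 22.8% in old mice. Calr, a lectin chaperone, rose by 1.43 ± 0.11 in young (adjusted p = 2.96e-08) and 1.91 ± 0.11 in old mice (adjusted p = 7.63e-10). The TRiC chaperonin of the cytosol had 4 of 7 subunits higher in young and 6 of 7 in old mice, and none lower, against the same shares. Dnaja1, an HSP40 partner of Hspa8, was lowest in young control, as was Hspa1a. It stood at 130 and 119 CPM in young control, 203 and 189 in young LPS, 212 and 210 in old control, and 192 and 206 in old LPS. The other 3 groups lay close together, and old LPS was below old control. Dnaja1 rose after LPS in young mice (0.66 ± 0.10, adjusted p = 4.96e-05) and was higher in old than in young control (0.77 ± 0.10, adjusted p = 0.000508), and its response differed between the ages (-0.75 ± 0.13, adjusted p = 0.0101). Of 3 heat shock factor genes, Hsf4 was lower after LPS at both ages (-0.87 ± 0.28, adjusted p = 0.0232, in young mice), and neither Hsf1, the main factor of the heat shock response, nor Hsf2 was called in any comparison.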

How the data were processed

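The authors deposited raw counts, whole UMI counts per gene and barcode, in 1 table per group and lane, with no normalization. Per the submitters' processing notes, bcl2fastq, STAR, Cell Ranger 3.1.0, R 3.6.3, Seurat 3.1 and 3.1.5 were used with build mm10. Their order, the handling of reads that match several genes or strands, and the hashtag assignment are not recorded in the labels used here. Barcodes with at least 500 genes and at most 20% mitochondrial UMIs were kept (11245 of 14048), 13 called doublets were removed, and 11232 cells were clustered (scanpy 1.11.5, 2000 variable genes without the chaperone lists, 30 components, 20 neighbours, Leiden resolution 1, 21 clusters). A cluster took the name of the marker class with the highest score, with at least 3 markers detected. Free RNA was not removed. Counts were summed per class and library, filtered with filterByExpr, scaled with TMM and tested with edgeR 4.0.16 (robust quasi-likelihood, R 4.3.3), all 8 libraries in 1 fit with 4 residual degrees of freedom. The Benjamini-Hochberg adjustment ran over every gene tested, at 0.05. An approximate SE was derived by dividing the size of each log2 fold change by the root of its F statistic. Classes were compared in a fit with library as a term. The fits were tested on simulated data, with genes picked at random from those tested and changed in young LPS. Of 100 genes changed 2-fold, 82 were recovered in AE2-like and 33 in ciliated-like cells. Of 100 changed 1.5-fold, 37 and 4 were recovered. Among unchanged genes, 8 were called in AE2-like and 0 in ciliated-like cells. A result not called in ciliated-like cells thus does not show that a gene was unchanged.

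The tables gave 31053 genes, 30934 with a symbol. The 10 members, the other chaperone lists and the tests were chosen with earlier results of these data known. Named genes are all members, up to 3 called genes with the largest fold change and at least 20 CPM per list and comparison, and the genes most correlated with Hspa1a plus Hspa1b; not each of them is printed, and Dnaja1 and the cluster values were singled out after they were seen. Same-numbered libraries share a lane per the labels, which pairs them; over all genes their deviations from the group means correlated between -0.01 and 0.14 in AE2-like and between -0.00 and 0.06 in ciliated-like cells. Alternatives were DESeq2 1.42.0, other size factors, no filter, other cell filters and clusterings, the lane as a block, leaving out each library and, added after the data were seen, counting the unnamed cluster as AE2-like. That last alternative cannot change a result within ciliated-like cells. CPM intervals are not given, and shares cover counting error only.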

Additional observations from a re-analysis of the deposited data

Results flagged for a closer look

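The results below are those in which a test of the difference itself separated the ages or the classes. In AE2-like cells the response of Hsp90ab1 to LPS differed between old and young mice by 1.13 ± 0.16 on the log2 scale. In ciliated-like cells the responses of Hsph1 and Hspe1 differed between the ages by 1.69 ± 0.25 and 1.64 ± 0.24. All 3 were called under all 19 alternatives, and all 3 compare groups of 2 libraries. For Hsph1 and Hspe1 the alternative that counts the unnamed cluster as AE2-like could not change the call, since it leaves the ciliated-like cells as they were.

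Between the classes, the young response was lower in ciliated-like than in AE2-like cells by -1.46 for Hsp90aa1, -0.80 for Hsp90ab1, -1.37 for Hsph1, -1.72 for Hspe1 and -1.01 for Hspd1. The old response was lower by -0.86 for Hsp90ab1 and -0.64 for Hspd1. Only the differences of Hsp90aa1 and Hspe1 in young mice were called under all 18 alternatives. In the fit across classes the median over all genes tested was 0.09 at each age, and it was -0.08 with library totals in place of TMM factors, so these differences are best read relative to a shift of that size.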

How the results depend on the processing

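Of 2070 member fold changes recomputed, 42 (in 21 member results) had the other sign, none of them called before or under the alternative, and 13 of 33 called member results were called in every alternative. Counts of called genes moved more, with 336 of 452 within 1.5 times. In the order LPS in young, LPS in old, old against young control, old against young LPS and interaction, DESeq2 called 2502, 3403, 40 and 190 genes in AE2-like cells (4120, 5371, 70 and 467 with edgeR; interaction within 1.5 times) and 279, 249, 8, 23 and 12 in ciliated-like cells (677, 730, 29, 89 and 19), and 212 and 309 between classes in young and old (654 and 1161). Its member counts were 3 of 6 for LPS in young AE2-like cells, 0 of 2 for their control age difference, 1 of 2, 0 of 1 and 4 against 2 for control age, LPS age and interaction in ciliated-like cells, and 3 of 5 and 0 of 2 between classes. For the control age difference in AE2-like cells, members fell from 2 to 1 with resolution 0.5, no TMM, chaperone lists kept for clustering or mitochondrial share at most 10%, and to 0 with at least 1000 genes; all genes went from 70 to 29 (at least 1000 genes), 45 (lists kept) and 242 (no filter). The AE2-like interaction went from 74 to 36, 29 and 316 under the same settings, and old against young LPS from 467 to 273 (lists kept) and 934 (no filter, members 1 to 3). In ciliated-like cells no filter gave 55 genes and 5 members for control age, 3 members for LPS age, and 50 genes and 4 members for the interaction. Between classes in old mice no TMM gave 4 members.

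No TMM also moved the share of calls that are higher: from 61.78% to 42.06% for LPS in old ciliated-like cells (451 higher and 279 lower to 360 and 496, median -0.01 to -0.13), 68.97% to 79.31% for their control age difference, 59.46% to 47.06% for the AE2-like interaction, and 59.48% to 35.11% and 59% to 37.08% between classes in young and old.

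Leaving out 1 library at a time gave these ranges of called genes, in the same order: 2502 to 5002 (LPS in young), 10 to 324, 97 to 2075 and 11 to 1111 (age in control, age in LPS, interaction) in AE2-like cells; 364 to 812, 303 to 856, 8 to 62, 42 to 149 and 3 to 51 in ciliated-like cells; and 287 to 762 and 440 to 1383 between classes. Members ranged over 2 to 6, 0 to 5, 0 to 3, 0 to 5 and 1 to 3 in AE2-like cells, 0 to 5 (LPS in old), 1 to 5 (age in control) and 0 to 2 (age in LPS) in ciliated-like cells, and 3 to 5 and 0 to 4 between classes. With 1 library left in a group, it is taken to vary like the others. The replicate block (lane as a term) kept all counts within 1.5 times; it called 4 members in place of 3 for LPS in old AE2-like cells, the added one being Hsp90ab1 (0.23, adjusted p = 0.0492), and changed no other member call. Depth limits Hspa1a and Hspa1b in ciliated-like cells, at 0 to 31 UMIs per library.

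The changes of sign were as follows, as log2 fold changes. No TMM gave -0.0001 for Hspa1b after LPS in old AE2-like cells and -0.0567 for the AE2-like interaction of Hsp90aa1, which was -0.0004 with the replicate block, -0.0164 with the lists kept and -0.0029 with the unnamed cluster added. A mitochondrial share of at most 10% gave -0.0838 for that Hspa1b response and 0.0619 for Bag3 after LPS in young AE2-like cells, and at least 1000 genes gave 0.0532 for that Bag3 response and 0.0448 for Hsph1 between classes in old mice. Hspa1a between classes in old mice was 0.0350 without the 3% highest doublet scores, 0.0186 with the lists kept, and 0.0068 with resolution 0.5 or the unnamed cluster added. Leaving out 1 library gave ranges across 0 in AE2-like cells for LPS in young (Hspe1 -0.19 to 0.0367, Hspd1 -0.18 to 0.0037, Bag3 -0.13 to 0.0726), LPS in old (Hspa1b -0.25 to 0.32, Hsph1 -0.78 to 0.17), age in control (Hsph1 -0.19 to 0.74, Bag3 -0.0517 to 0.18), age in LPS (Hspa1b -0.22 to 0.32) and interaction (Hsp90aa1 -0.0810 to 0.0759, Hspa8 -0.21 to 0.0341). It did so in ciliated-like cells for Hspa8 (LPS in young -0.14 to 0.46, age in control -0.0628 to 0.50) and Bag3 (age in LPS -0.71 to 0.0672), between classes in young mice (Hspa1a -0.51 to 5.35, Hspa1b -1.37 to 5.13, Hspa8 -0.39 to 0.0933) and in old mice (Hspa1a -3.04 to 0.55, Hspa1b -1.58 to 0.27, Hsph1 -0.78 to 0.32, Dnajb1 -0.28 to 0.19, Bag3 -0.49 to 0.0057). The cause was not tested; the wide ranges of Hspa1a and Hspa1b rest on few UMIs.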

Other observations

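Hsp90aa1 ran weakly with other transcripts over single ciliated-like cells. The highest mean correlations over the 8 libraries, among 5688 genes and 873 cells thinned to 2000 UMIs, were with Pcp4l1 (0.21, range 0.01 to 0.43), Csrp2 (0.16, range -0.04 to 0.38), Spag16 (0.15, range -0.08 to 0.37), Efcab10 (0.15, range 0.02 to 0.29) and Coa3 (0.14, range -0.00 to 0.34), followed by Cfap43, Gsn, Slc23a2, 1190007I07Rik and Foxj1. Of these first 5, only Pcp4l1 and Efcab10 stayed above 0 in all 8 libraries. The comparison with Hsp90aa1 was chosen after its values were seen. The cells share library and depth, the correlations are weak, and they are given as a description.

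Small heat shock protein Hspb1 rose after LPS in old AE2-like cells (log2 fold change 1.47 ± 0.37, adjusted p = 0.0296 in edgeR), from a mean of 47.7 CPM in old control to 132 CPM in old LPS, beside 102 CPM in young control and 83.4 CPM in young LPS.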
